A study of Mus musculus with 48 samples.

Results

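The contralateral dentate gyrus was compared between kainate-injected and saline-injected mice 14 days after the injection, to see what was left there of the early transcriptional response. The 8 libraries of this comparison, 4 from kainate mice and 4 from saline mice, were chosen by side, treatment and day from a series of 48, and 21390 of the 55357 genes in the count table passed the filter on low counts and were tested. All mice were wild-type C57BL/6J, 6 to 8 weeks old per the labels (the study's methods give a somewhat older age), with 2 males and 2 females in each group. Kainate, an agonist of glutamate receptors that induces status epilepticus, or saline was injected into the hippocampus of 1 side, and the dorsal dentate gyrus of each side was taken 3, 7 or 14 days later. The injected side is the epileptogenic zone (EZ) and the contralateral side, which received no kainate directly, is the peri-ictal zone (PIZ). The ipsilateral and contralateral libraries of a mouse share its number.

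The dentate gyrus is a sheet of tightly packed glutamatergic granule cells that is traversed by seizures spreading from the other hippocampus through commissural fibers. Its inner edge keeps dividing progenitors whose daughters pass through an immature stage marked by doublecortin before they express calbindin as mature granule cells, and seizures are known to alter both the rate of this neurogenesis and the calbindin content of mature cells. Astrocytes and microglia respond to status epilepticus with reactive gliosis. In bulk tissue, fewer cells of a type and less RNA per cell cannot be told apart.

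The 8 libraries held 18557469 to 24661115 counts each, and the sexes in the labels were matched by the libraries, 2 of 4 in each group having a high level of the female-specific transcript. A pair of libraries stood apart. Kainate mouse 27 had 1821 summed CPM (library-size-scaled counts) over the reactive astrocyte list, against 687 to 789 in the other 3 kainate mice and 560 to 775 in the saline mice. Saline mouse 39 had a mature granule cell sum of 949 CPM against 1862 to 1958 in the other saline mice, a hilar mossy cell sum of 116 CPM against 17.3 to 19.6, an interneuron sum of 2066 CPM against 1358 to 1487 and a myelin sum of 1634 CPM against 2457 to 2788. Whether these differences come from the dissection or from the mice was not tested. Results are given with and without these mice where they matter.

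At day 14, 3 genes were differentially expressed (DEG; adjusted p under 0.01 and a change over 1.5-fold in edgeR's quasi-likelihood test), which was 0.014% of the genes tested. Tmc6 and Igfbpl1 were upregulated, and Btg3 was downregulated. At day 3 the same test in the PIZ had called 1855 genes, 1520 upregulated and 335 downregulated, and at day 7 it had called 43. Without mice 27 and 39 the count at day 14 went from 3 to 0, with adjusted p of 0.0153 for Tmc6, 0.0387 for Btg3 and 0.0711 for Igfbpl1.

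Btg3 encodes a member of the BTG and TOB family of proteins that restrain cell division. Its level was 6.31, 7.09, 8.07 and 8.19 CPM in the kainate mice and 11.1, 11.6, 11.9 and 13.9 CPM in the saline mice. The groups did not overlap, and every kainate library was below every saline library. The log2 fold change was -0.71 ± 0.10 (SE, n = 4 per group), with an adjusted p of 2.37e-04 in edgeR's quasi-likelihood test and an exact two-sided permutation p of 0.0286, the smallest that 4 against 4 libraries allow. Fitted with these 8 libraries alone, Btg3 had an adjusted p of 0.0553 and was not called in edgeR. Btg3 had been downregulated on each earlier day, with log2 fold changes of -1.01 ± 0.10 at day 3 and -0.62 ± 0.10 at day 7. Of the 5 family members tested, Btg3 alone was called, and Btg2 (-0.43 ± 0.26), Tob1 (-0.14 ± 0.12), Tob2 (-0.09 ± 0.16) and Btg1 (0.03 ± 0.15) had adjusted p of 0.926 or higher.

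The coding sequence of Btg3 has an identical copy elsewhere in the genome, so its reads could not be fully assigned. Btg3 lies on chromosome 16 (chr16:78129271-78174312, minus strand, GRCm39), where it overlaps the oppositely transcribed Cxadr. The processed pseudogene Gm7334 lies in 1 exon on chromosome 17 (chr17:51005716-51006471, plus strand), and all 756 of its bases aligned with no difference and no gap to bases 217 to 972 of the 3941-base transcript Btg3-201. Every 35-base window of the pseudogene, 722 of 722, occurred in that transcript. The first 120 bases of the shared stretch, shown because a read from it fits each locus equally, are the same in the pseudogene and in Btg3, so no base is in capitals (capitals would mark a difference):

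Btg3 and Gm7334: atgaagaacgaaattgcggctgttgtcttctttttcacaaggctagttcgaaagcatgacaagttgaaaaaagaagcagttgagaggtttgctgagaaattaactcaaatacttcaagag

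The counts assigned to Gm7334 moved as those of Btg3 did, with a log2 fold change of -0.67 ± 0.15 at day 14 (adjusted p = 0.114), -0.69 ± 0.15 at day 7 and -0.71 ± 0.16 at day 3. Gm7334 took 25.4% to 35.9% of the sum of the 2 loci in the 8 libraries. Summed over the pair of loci, the level was 9.36, 10.97, 11.06 and 11.96 CPM in the kainate mice and 15.8, 16.7, 17.3 and 20.6 CPM in the saline mice. The summed groups did not overlap (exact two-sided permutation p = 0.0286), and the difference of their mean log2 levels was -0.70, so it did not depend on how the shared reads were divided. Btg3 was picked from all genes in these same libraries, so this p, like that for Btg3 alone, gave no separate support. Which locus was transcribed could not be told from these counts.

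Tmc6 encodes a transmembrane channel-like protein of the endoplasmic reticulum that partners with the product of its neighbor Tmc8. Tmc6 stood at 13.9, 15.6, 17.7 and 19.5 CPM in the kainate mice and at 4.62, 4.68, 5.75 and 6.32 CPM in the saline mice. The lowest kainate library was above the highest saline library by more than the whole range of the saline group. The log2 fold change was 1.64 ± 0.24 (adjusted p = 3.53e-04, edgeR), after 2.72 ± 0.25 at day 3 and 1.80 ± 0.24 at day 7, and Tmc6 was upregulated on all 3 days. Tmc6 (chr11:117656810-117673080, minus strand, GRCm39) and Tmc8 (chr11:117672902-117683948, plus strand) start back to back and overlap by 179 bases. Tmc8 had a log2 fold change of 0.30 ± 0.46 at day 14, and its groups overlapped. Of the 5 genes of the TMC family tested, Tmc6 alone had an unadjusted p under 0.05.

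Igfbpl1, an insulin-like growth factor binding protein relative that is enriched in newborn neurons, was the DEG that had not been called on either earlier day. Its level was 15.1, 21.2, 21.5 and 24.3 CPM in the kainate mice and 1.42, 6.38, 6.38 and 8.11 CPM in the saline mice. The groups did not overlap, and the lowest saline value came from mouse 39. Its log2 fold change at day 14 was 1.88 ± 0.33 (adjusted p = 0.00761, edgeR), against 1.48 ± 0.32 at day 7 (adjusted p = 0.0128) and 0.29 ± 0.32 at day 3 (adjusted p = 0.555). Without mouse 39 it was 1.56 with an adjusted p of 0.0366, and the call was also lost without kainate mouse 27, 36 or 40 or saline mouse 28 or 31 (edgeR, adjusted p over 0.01 in each), with these 8 libraries alone, with the PIZ libraries alone and with no filter for low counts. The test of the difference between its day 14 and day 3 effects gave 1.59 ± 0.46 with an adjusted p of 0.0785, so a later onset was not established by that test. Igfbpl1 lies at chr4:45809254-45826923 (minus strand, GRCm39). Among the 11 genes for insulin-like growth factors, their receptors and binding proteins, Igfbp6 (1.73 ± 0.36, adjusted p = 0.0671) was the other with an unadjusted p under 0.05, and 8 were lower in kainate mice. Of all genes, 49.1% were lower and 3.27% were higher with such a p.

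**Figure D1:**
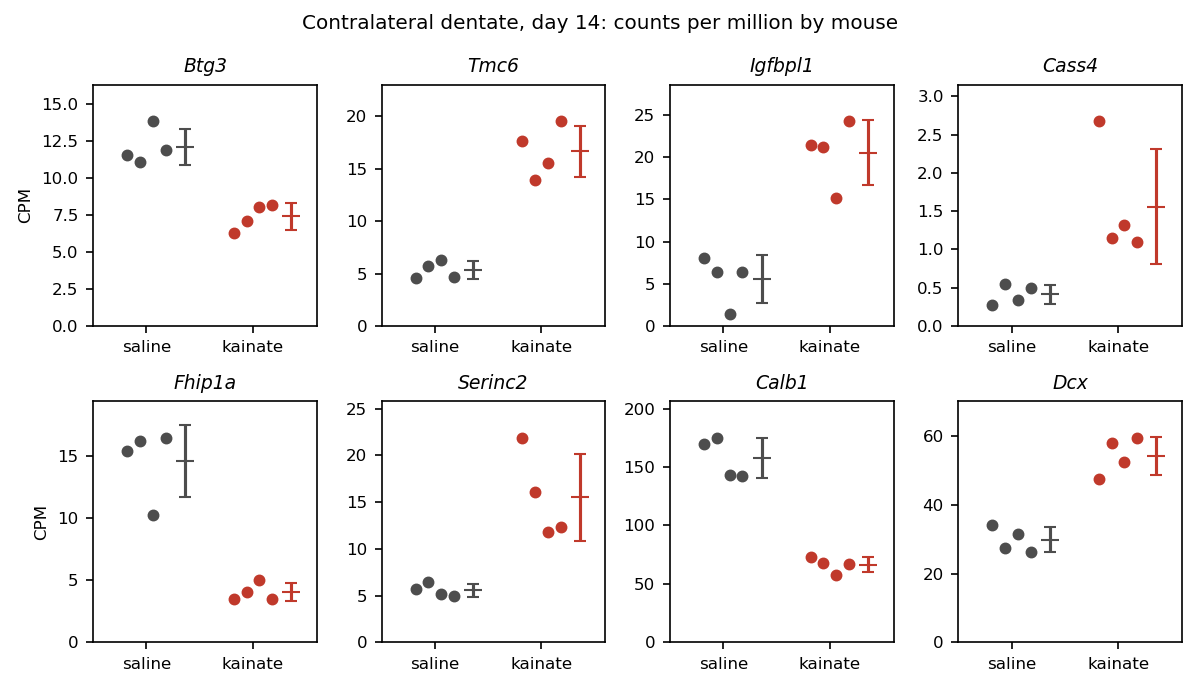
CPM (vertical axes, from 0) of 8 genes in each contralateral library at day 14, with saline mice in gray and kainate mice in red (4 mice each, in the same order in every panel); the bar beside each group gives its mean and SD. In each panel the 4 kainate libraries lie on 1 side of the 4 saline libraries, with means of 7.41 against 12.1 CPM for Btg3, 16.7 against 5.34 CPM for Tmc6 and 20.5 against 5.57 CPM for Igfbpl1.

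Just past the threshold stood 3 genes with adjusted p between 0.01 and 0.05 in edgeR's quasi-likelihood test. Cass4, which encodes a scaffold protein of focal adhesions, was at 1.10 to 2.68 CPM in kainate mice and at 0.272 to 0.542 CPM in saline mice (log2 fold change 1.90 ± 0.34, adjusted p = 0.0120). Its highest value came from mouse 27, and the other 3 kainate mice lay between 1.10 and 1.31 CPM, still above the saline mice. Fhip1a, which encodes a subunit of a complex that links cargo to dynein, was at 3.52 to 5.07 CPM in kainate mice and at 10.3 to 16.5 CPM in saline mice (log2 fold change -1.85 ± 0.35, adjusted p = 0.0199). Serinc2, of the serine incorporator family, was at 11.8 to 21.9 CPM in kainate mice and at 4.95 to 6.50 CPM in saline mice (log2 fold change 1.47 ± 0.29, adjusted p = 0.0299). All 3 were DEGs with DESeq2 and with limma-voom and quality weights. Fhip1a was also a DEG when the PIZ libraries alone or these 8 libraries alone were fitted in edgeR.

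The 10 higher and 10 lower genes with the smallest p at day 14 repeated the direction they had on the earlier days. All 20 had the same sign at day 3, at day 7 and in the EZ at day 14, and 14 of the 20 had been DEGs in the same direction in the PIZ at day 3. Of all genes tested, 67.3% had the day 14 sign at day 3, 63.6% at day 7, 59.1% in the EZ at day 14 and 38.1% in all of these, and 7.48% had been DEGs at day 3 in that direction. The day 3 and day 7 values came from other mice than the day 14 values, whereas the EZ values came from the same mice. In addition to those described, the higher genes were Igfbp6, Pik3r1 (the p85 regulatory subunit of phosphoinositide 3-kinase; 0.61 ± 0.13), Dok7 (an adaptor of the receptor kinase MuSK; 0.62 ± 0.13), Cd1d1 (which presents lipid antigens; 1.69 ± 0.38), Trim67 (0.87 ± 0.19) and the long non-coding RNA Gm28578 (3.85 to 6.83 against 0.792 to 2.50 CPM). Pik3r1 was at 111 to 125 CPM in kainate mice and at 70.6 to 82.4 CPM in saline mice. The spread within each group was small beside the gap between them. Cd1d1 was at 4.92 CPM in mouse 27 but at 1.52 to 1.66 CPM in the other kainate mice, against 0.453 to 1.08 CPM in saline mice.

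The other lower genes included Atp6v1c2 (a subunit of the vacuolar proton pump; -2.16 ± 0.48), Ogn (the proteoglycan osteoglycin; -1.67 ± 0.37), Lpar4 (a lysophosphatidic acid receptor; -0.88 ± 0.20) and Kcng3 (a modulatory subunit of voltage-gated potassium channels; -2.17 ± 0.49). Tmem171 (-2.72 ± 0.65), Mageh1 (-0.28 ± 0.07) and Plekhd1 (-1.11 ± 0.27) completed the 10. None of these passed an adjusted p of 0.05 in edgeR's test, and their groups did not overlap. Over all genes, 7.18% had 4 kainate libraries on 1 side of the 4 saline libraries. Kcng3 was at 0.287 to 1.22 CPM in kainate mice and at 2.94 to 3.30 CPM in saline mice 24, 28 and 31, with 6.27 CPM in mouse 39.

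The genes that had been upregulated at day 3 were mostly nearer to the saline level by day 14 than at day 3. Still, 331 of the 1520 were over 1.5-fold higher at day 14, where 1287 of all 21390 genes were. For these 1520 the median log2 fold change went from 1.64 (day 3) through 0.68 (day 7) to 0.25 (day 14), beside a median of 0.00 over all genes at day 14. At day 14, 1279 of them (84.1%) were still higher in kainate mice, where 50.9% of all genes were. Of the 1520, 175 (11.5%) were higher with an unadjusted p under 0.05, where 3.27% of all genes were, and 1 was lower. Tmc6 alone was still a DEG. The mean of their log2 levels relative to the saline group was 0.12, 0.14, 0.26 and 0.63 in kainate mice 14, 36, 40 and 27, and -0.09 to 0.08 in saline mice. All 4 kainate mice were above all 4 saline mice, but by little in mice 14 and 36. Without mouse 27 the median at day 14 was 0.11 and the share still higher was 67.5%, and without mice 27 and 39 they were 0.09 and 64.8%.

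The genes that had been downregulated at day 3 were mostly still below saline at day 14. Their median log2 fold change went from -0.96 (day 3) to -0.34 (day 7) and -0.34 (day 14), and the median ratio of the day 14 to the day 3 effect was 0.362, against 0.167 for the upregulated genes, a difference that was not tested. At day 14, 322 of the 335 (96.1%) were lower in kainate mice, where 49.1% of all genes were, and 72 of the 335 were over 1.5-fold lower. With an unadjusted p under 0.05, 117 (34.9%) were lower, where 2.68% of all genes were, and 0 were higher. Btg3 alone was still a DEG. By mouse, the mean reduction in log2 level was 0.29, 0.35, 0.37 and 0.60 in kainate mice 14, 36, 40 and 27, and -0.13 to 0.09 in saline mice. Mouse 27 was again the furthest from saline, and here the other 3 kainate mice also stood well apart from the saline group. Without mouse 27 the median at day 14 was -0.27 and the percent of genes downregulated at day 3 that are lower at day 14 was 92.7, and without mice 27 and 39 they were -0.21 and 82.1. The 8 genes that had been downregulated at day 3 and at day 7 were all lower at day 14 with an unadjusted p under 0.05.

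**Figure D2:**
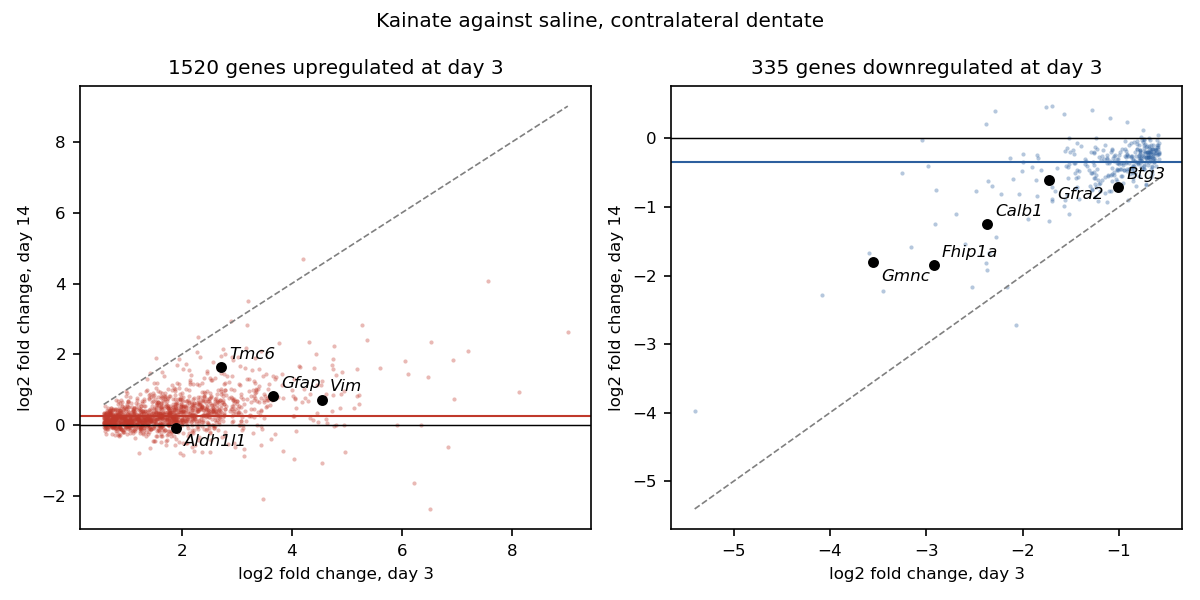
Log2 fold change of kainate against saline in the PIZ at day 3 (horizontal axes) and at day 14 (vertical axes) for the 1520 genes upregulated and the 335 downregulated at day 3, 1 point per gene; the dashed line marks equal effects, the black line 0 and the colored line the median at day 14 (0.25 and -0.34). Most points lie between 0 and the dashed line, with Tmc6, Btg3 and Fhip1a nearer to it than Aldh1l1, Gfap and Vim; the panels differ in scale.

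The 6 downregulated genes with the smallest p at day 3 all stayed on the low side at day 14. They were Btg3, Fhip1a, Gmnc (a geminin relative required for multiciliated cells; -1.80 ± 0.44), Gfra2 (the receptor for neurturin; -0.61 ± 0.15), the long non-coding RNA 2900052N01Rik (-0.61 ± 0.18) and Camkk2 (a calcium-dependent kinase; -0.25 ± 0.11). Gmnc was at 1.37 to 3.44 CPM in kainate mice and at 5.23 to 8.47 CPM in saline mice, and the groups did not overlap. Gfra2 was at 16.02 to 22.7 CPM in kainate mice and at 23.01 to 37.4 CPM in saline mice, with mouse 39 the lowest saline library. The Gfra2 effect had been -1.73 ± 0.16 at day 3. The difference of 1.12 ± 0.22 between the days had an adjusted p of 0.00818 in edgeR. The adjusted p was 0.0103 in limma-voom with mouse as a replicate block and 0.0128 in edgeR with no filter for low counts. The difference was called in 4 of 16 edgeR fits that each left out 1 mouse. Camkk2 overlapped between the groups, at 88.1 to 142 CPM against 128 to 165 CPM.

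The 8 upregulated genes with the smallest p at day 3 behaved unlike one another. Tmc6 stayed high. Ltbp3 (a binding protein of latent TGF-beta; 0.48 ± 0.18) and Ttyh3 (of the tweety family of chloride channels; 0.27 ± 0.08) remained above saline in every library, with 23.6 to 31.03 against 17.3 to 19.2 CPM for Ltbp3 and 193 to 229 against 164 to 189 CPM for Ttyh3. Aldh1l1, a folate enzyme used as a marker of all astrocytes, was at 45.4, 34.9, 33.98 and 34.2 CPM in kainate mice 27, 36, 14 and 40 and at 37.96 to 41.1 CPM in saline mice. Its groups overlapped, and its log2 fold change had gone from 1.90 ± 0.17 at day 3 to 0.12 ± 0.17 at day 7 and -0.07 ± 0.17 at day 14. Aspg (0.71 ± 0.40), 2810459M11Rik (0.18 ± 0.17), Myo10 (0.09 ± 0.10) and Lgi4 (0.07 ± 0.12) also overlapped between the groups at day 14.

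A direct test of the day 14 effect against the day 3 effect picked out 26 genes (0.122% of those tested), at an adjusted p under 0.01 and a ratio over 1.5. For 25 of them the log2 fold change was lower at day 14. Gfra2 was the exception in sign only, as it went from -1.73 to -0.61 and so also came nearer to saline. Among them, named after their values were seen, were Vim, the intermediate filament of reactive astrocytes (from 4.54 to 0.73), Hspb6, a small heat shock protein (from 3.54 to 0.54), Nusap1, of the mitotic spindle (from 2.79 to -0.20), and Kif22, a mitotic kinesin (from 2.30 to -0.43). Gfap, the other astrocyte filament, went from 3.65 ± 0.44 to 0.82 ± 0.40, a difference of -2.84 ± 0.57 (adjusted p = 0.00957, edgeR). At day 14 Gfap was at 1326 CPM in mouse 27 and at 386 to 469.5 CPM in the other kainate mice, against 284 to 474 CPM in saline mice. It was therefore mouse 27 alone that lay outside the saline range. The count of 26 was 500 without mouse 27, 37 without kainate mouse 38 of day 3, and 2 to 17 when any other mouse of day 14 or day 3 was left out. It was 9 in a limma-voom fit with mouse as a replicate block, where the test changed together with the block. Of the 16 fits that each left out 1 mouse, Aldh1l1 and 2810459M11Rik were called in all, Lgi4 in 14, Kif22 in 7, Vim in 4, Hspb6 and Nusap1 in 2 and Gfap in 1, the fit without mouse 27. In the limma-voom fit with the replicate block, Hspb6 (adjusted p = 0.0103), Kif22 (0.0297) and Nusap1 (0.0885) were no longer called, while Vim and Gfap were. In edgeR with no filter for low counts, Gfap (adjusted p = 0.0259), Vim, Hspb6 and Nusap1 (0.0155 each) were not called.

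Against day 7 no gene passed the test of the difference in edgeR, with 656 at an unadjusted p under 0.05, and DESeq2 called 1 gene. Against the EZ at day 14 no gene passed either, with 1561 at an unadjusted p under 0.05, and DESeq2 called 2. On the injected side 499 genes were DEGs at day 14, so the larger count there was not matched by a tested difference for any single gene in edgeR. Among the DEGs of the PIZ, Btg3 was at -0.33 ± 0.10, Tmc6 at 1.07 ± 0.24 and Igfbpl1 at 0.78 ± 0.32 in the EZ at day 14. All 3 point estimates were smaller on the injected side, but the differences between the sides had adjusted p of 0.543, 0.734 and 0.596.

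**Figure D3:**
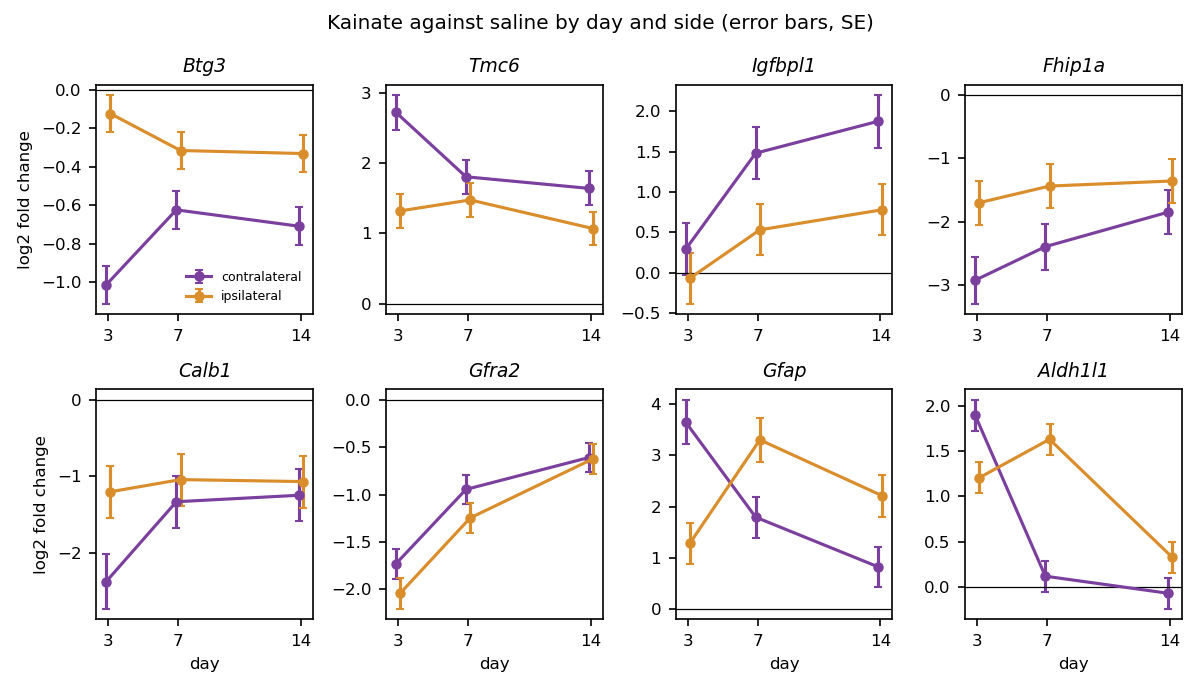
Log2 fold change of kainate against saline (vertical axes, scaled per gene; error bars, SE) by day (3, 7 and 14) on the contralateral (purple) and the ipsilateral (orange) side for 8 genes, 4 mice per group. In the contralateral dentate Btg3, Tmc6, Fhip1a and Calb1 stay away from 0 at day 14, Igfbpl1 is at 0.29, 1.48 and 1.88 on the successive days, and Aldh1l1 is near 0 from day 7 on.

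Genes of immature granule neurons were mostly higher at day 14, whereas at day 3 they had been near saline. Of the 21 genes on the list, 16 were higher in kainate mice, 9 of them with an unadjusted p under 0.05, and 1 was lower with such a p (St8sia4, -0.39 ± 0.14), where 50.9% of all genes were higher and 3.27% were higher with such a p. Igfbpl1 was the only DEG among them in edgeR's test. The median log2 fold change was 0.25, after 0.46 (day 7) and 0.01 (day 3), and none of the 21 had been a DEG at day 3. Doublecortin, Dcx, the microtubule-associated protein that defines the stage, was at 47.5, 52.5, 58.1 and 59.6 CPM in kainate mice and at 26.3, 27.6, 31.7 and 34.2 CPM in saline mice. The groups did not overlap, and the log2 fold change was 0.86 ± 0.28 (adjusted p = 0.405, edgeR). Dcx was a DEG when the PIZ libraries alone were fitted and with limma-voom and quality weights.

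Other members, named after their values were seen, were the transcription factors Sox11 (1.20 ± 0.28) and Sox4 (0.76 ± 0.23), the polysialyltransferase St8sia2 (1.02 ± 0.26), the axon guidance protein Draxin (1.28 ± 0.38) and the surface glycoprotein Cd24a (0.94 ± 0.31). Sox11 was at 39.1 to 57.9 CPM in kainate mice and at 12.6 to 26.95 CPM in saline mice. In the summed level of the list, however, saline mouse 39 (1732 CPM) lay within the kainate range of 1633 to 1771 CPM, above the other saline mice at 1396 to 1426 CPM. Without mice 27 and 39, 18 of the 21 were higher and 11 had an unadjusted p under 0.05, with a median of 0.43. Among the 12 genes of stem and progenitor cells, Eomes, which marks intermediate progenitors (1.12 ± 0.53), Neurog2 (1.02 ± 0.47) and Lpar1 (0.66 ± 0.23) were higher with an unadjusted p under 0.05, Mfge8 (-0.50 ± 0.15) was lower, and the stem cell gene Hopx was at -0.18 ± 0.16. Of all genes, 3.27% were higher with such a p. The 3 higher genes became 1 without mouse 39, and the median of the progenitor list turned from 0.02 to -0.08 without mouse 27. No gene of the progenitor list passed the adjusted test in edgeR.

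Genes of mature granule cells were mostly lower, and calbindin led them. Calb1 was at 57.8, 67.0, 68.1 and 72.7 CPM in kainate mice and at 142.6, 143.2, 169.6 and 175 CPM in saline mice. The groups did not overlap, and mouse 39 lay within the range of the other saline mice. The log2 fold change was -1.25 ± 0.34 (adjusted p = 0.226, edgeR), after -2.37 ± 0.35 at day 3 and -1.33 ± 0.34 at day 7. Calb1 was a DEG at day 14 when the PIZ libraries alone (adjusted p = 1.92e-04) or these 8 libraries alone (adjusted p = 0.00138) were fitted in edgeR, and with limma-voom and quality weights.

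Of the 13 genes on the mature list, 10 were lower, 4 of them with an unadjusted p under 0.05 (Calb1, Tdo2, C1ql3 and Maml2), and none was higher with such a p, where 49.1% of all genes were lower and 2.68% were lower with such a p. Prox1, the transcription factor of granule cell identity, was at -0.03 ± 0.26. The summed level was 1327 to 1586 CPM in kainate mice, below saline mice 24, 28 and 31 at 1862 to 1958 CPM and above mouse 39 at 949 CPM. Without mouse 39, 12 of the 13 were lower and the median went from -0.16 to -0.52.

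The inflammatory and glial lists that had stood highest at day 3 were closer to saline at day 14, and kainate mouse 27 stood highest in most of them. Antigen presentation genes had a median log2 fold change of 0.67, with 15 of 15 higher and 2 at an unadjusted p under 0.05, Cd74, the invariant chain of class II molecules (2.05 ± 0.81), and Psmb9, of the immunoproteasome (0.90 ± 0.38). Their sum was 342 CPM in mouse 27 and 161 to 181 CPM in the other kainate mice, against 147.1 to 169.8 CPM in saline mice. Of all genes, 50.9% were higher and 3.27% were higher with such a p. Without mouse 27 the median was 0.16, and 1 gene had such a p. Cd74 was at 12.3 CPM in mouse 27 and at 1.02 to 2.47 CPM in the other kainate mice, against 0.550 to 1.42 CPM in saline mice.

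Interferon response genes fell into the same pattern, with a median of 0.29 and 25 of 28 higher, but 0.02 and 15 higher without mouse 27, and -0.03 and 11 higher without mice 27 and 39. None had an unadjusted p under 0.05 in edgeR with all mice. Reactive astrocyte genes had a median of 0.32, with Gfap the 1 member at an unadjusted p under 0.05, and 0.10 without mouse 27. Complement genes had a median of 0.35, with C4b (1.02 ± 0.40) and C3 (2.24 ± 1.02) at an unadjusted p under 0.05, and 0.24 without mouse 27. Without that mouse C4b was at 0.31. C3 was at 0.315 to 1.48 CPM in kainate mice and at 0.0550 to 0.227 CPM in saline mice, with no overlap. Activated microglia genes had a median of 0.33, homeostatic microglia genes 0.09, cytokines and chemokines 0.17 and leukocyte genes 0.15, with Ccl5 (3.46 ± 1.61) the only member of these 4 lists at an unadjusted p under 0.05. Without mouse 27 the medians were 0.16, 0.03 and 0.06 for the first 3 of these lists, without mice 27 and 39 those of homeostatic microglia and cytokines turned to -0.01 and -0.02, and without mouse 39 the leukocyte median was 0.41. At day 3 the medians had been 1.87 for antigen presentation, 1.86 for interferon response, 2.14 for reactive astrocytes, 2.49 for complement and 2.16 for activated microglia.

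Genes of cell division, which peaked at day 3 with a median of 2.46, had a median of 0.52 at day 14, with 21 of 23 higher, where 50.9% of all genes were. Those higher with an unadjusted p under 0.05 were Mki67 and Cdc20, 2 of 23, where 3.27% of all genes were higher with such a p. There were 0 without mouse 27 and 0 without mouse 39 in edgeR. Their summed level overlapped between the groups, at 106 to 156 CPM (median 118) in kainate mice and 85.7 to 131 CPM (median 122) in saline mice. Mki67, the proliferation antigen, was at 8.12 CPM in mouse 27 and at 2.36 to 3.76 CPM in the other kainate mice, against 0.979 to 2.72 CPM in saline mice. Its groups overlapped, and its log2 fold change was 1.03 ± 0.51 (unadjusted p = 0.0480 in edgeR's quasi-likelihood test). Without mice 27 and 39 the median of the list was 0.14.

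**Figure D4:**
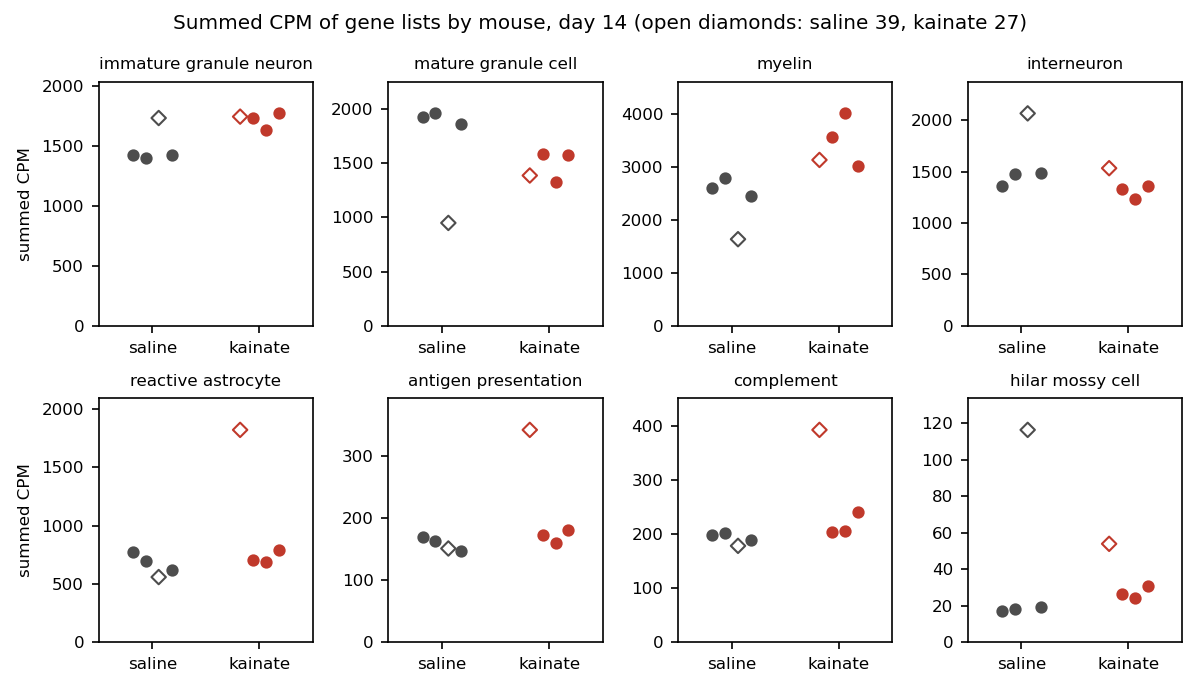
Summed CPM (vertical axes, from 0) of 8 gene lists in each contralateral library at day 14, saline in gray and kainate in red, with kainate mouse 27 and saline mouse 39 as open diamonds. Mouse 27 stands alone for reactive astrocyte (1821 CPM), antigen presentation (342 CPM) and complement (393 CPM) genes, and mouse 39 stands alone for mature granule cell (949 CPM) and hilar mossy cell (116 CPM) genes.

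Myelin genes were higher in kainate mice for 13 of 13, with a median of 0.52, after -0.09 at day 3, where 50.9% of all genes were higher. Those with an unadjusted p under 0.05 were Aspa (0.73 ± 0.27), Ermn (0.68 ± 0.26), Mal (0.58 ± 0.27), Fa2h (0.52 ± 0.25) and Mbp, myelin basic protein (0.57 ± 0.28), 5 of 13 where 3.27% of all genes were higher with such a p. The summed level was 3022 to 4006 CPM in kainate mice and 1634 to 2788 CPM in saline mice, with no overlap. Without mouse 39, the lowest, 13 of 13 were still higher and the median was 0.40, but none had an unadjusted p under 0.05 in edgeR. Genes of cholesterol synthesis were higher for 17 of 17, by a median of 0.13, and 3 had an unadjusted p under 0.05, Srebf2 (0.33 ± 0.12) and Dhcr7 (0.27 ± 0.11) among them. Without mouse 27, 15 of 17 were higher and 1 had such a p. Oligodendrocyte precursor genes had a median of 0.10, which turned to -0.07 without mouse 27 and to -0.10 without mice 27 and 39, and their defining receptor Pdgfra was at -0.52 ± 0.21.

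Astrocyte genes of the resting state were near saline (median -0.07, 10 of 17 lower, 1 with an unadjusted p under 0.05). Without mouse 27, 13 were lower, 3 with such a p, and without mice 27 and 39, 15 were lower with a median of -0.11. Of all genes with every mouse included, 49.1% were lower and 2.68% were lower with such a p. Slc4a4, the astrocytic sodium bicarbonate cotransporter, was at 203 to 216 CPM in kainate mice and at 237 to 299 CPM in saline mice. Its groups did not overlap (-0.41 ± 0.10, adjusted p = 0.166, edgeR), and its effect was -0.43 ± 0.10 at day 7 but -0.07 ± 0.10 at day 3.

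Neuronal receptor and channel genes differed little. GABA-A receptor subunits were lower for 11 of 12, by a median of -0.17, where 49.1% of all genes were lower and 2.68% were lower with an unadjusted p under 0.05, and the extrasynaptic delta subunit Gabrd (-0.56 ± 0.27) had an unadjusted p under 0.05, with mouse 39 (18.4 CPM) below every kainate mouse. Glutamate receptor genes had a median of -0.06, with the kainate receptor subunit Grik3 (-0.62 ± 0.22) lower and Grin2c (0.31 ± 0.14) higher at an unadjusted p under 0.05. Voltage-gated channel genes had a median of -0.06 and synaptic vesicle genes -0.05, with Cacna1g, a T-type calcium channel (0.94 ± 0.42), the only member of these 2 lists at such a p. Cacna1g was at 0.16 without mouse 27, and without mouse 39 the medians of the glutamate receptor and synaptic vesicle lists turned to 0.03 and 0.06. Interneuron genes were lower for 14 of 15 by a median of -0.26, against the same 49.1% of all genes. Without mouse 39, 9 of 15 were lower and the interneuron median was -0.04. Npy, the 1 member that was higher, though lower in 3 of 18 alternatives, was at 198 CPM in mouse 27 and at 33.3 to 37.4 CPM in the other kainate mice, against 30.9 to 54.3 CPM in saline mice.

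Among neuropeptides and activity-regulated secreted proteins, Gal, the peptide galanin, was at 4.87 CPM in mouse 27 and at 0.897 to 1.31 CPM in the other kainate mice, against 0.167 to 0.770 CPM in saline mice (2.09 ± 0.64). Its groups did not overlap even in the lower 3 kainate mice, and without mouse 27 it was at 1.17. Tac2, which encodes neurokinin B (1.33 ± 0.53), was also higher with an unadjusted p under 0.05, and Adcyap1, which encodes the peptide PACAP (-2.04 ± 0.93), and Tac1, the substance P precursor (-0.78 ± 0.36), were lower with such a p. Adcyap1 was at 19.6 CPM in mouse 39 and at 1.43 to 3.17 CPM in the other saline mice, against 1.24 to 1.88 CPM in kainate mice. Of all genes, 3.27% were higher and 2.68% lower with such a p. The median of these 18 genes was 0.12, and it was -0.13 without mouse 27. Immediate early genes, which report recent neuronal firing, were lower for 15 of 20 with a median of -0.18, where 49.1% of all genes were lower, and none had an unadjusted p under 0.05. Fos was at -0.38 ± 0.64.

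The lists of Wnt signaling genes, the pathway the study followed, had medians close to 0 at day 14. The median was -9.79e-05 over 35 genes of the canonical pathway and -0.06 over 20 of the non-canonical pathway, lists that the study chose on these samples. Dvl1, a cytoplasmic relay of Wnt receptors (0.25 ± 0.07), was higher, and Lgr4, a receptor for R-spondins (-0.31 ± 0.10), and Frzb, a secreted inhibitor (-1.14 ± 0.40), were lower with an unadjusted p under 0.05, as was Ryk, a Wnt co-receptor (0.21 ± 0.10), on the higher side. With such a p, 1 was higher and 2 were lower of the 35, and 1 was higher and 0 lower of the 20. Of all genes, 3.27% were higher and 2.68% lower with such a p. None on these lists passed the adjusted test in edgeR. Ctnnb1, beta-catenin, was at -0.05 ± 0.10. Wnt9a, a Wnt ligand on neither list and named after its values were seen, was at 2.94 to 6.93 CPM in kainate mice and at 7.34 to 22.1 CPM in saline mice (log2 fold change -1.54 ± 0.47, adjusted p = 0.343 in edgeR). Its groups did not overlap, and it had been downregulated at day 3 (-2.60 ± 0.51).

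Markers of neighboring tissue gave no common direction. The choroid plexus list had a median of 0.45 over 7 genes, led by Prlr, the prolactin receptor, at 33.2 CPM in mouse 27 and 6.07 to 6.56 CPM in the other kainate mice against 2.42 to 3.92 CPM in saline mice (2.01 ± 0.58), and its summed level overlapped between the groups (110.5 to 150 against 84.4 to 126 CPM). The choroid plexus median was 0.26 without mouse 27 and 0.15 without mice 27 and 39, and Prlr was at 0.98 without mouse 27. The lists for thalamus (0.02), CA field pyramidal cells (0.05), endothelium and pericytes (-0.06), meninges and fibroblasts (-0.17) and blood (0.20) had medians of at most 0.20 in size. Without mouse 39 those of thalamus, meninges and blood were -0.16, 0.01 and 0.31.

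**Figure D5:**
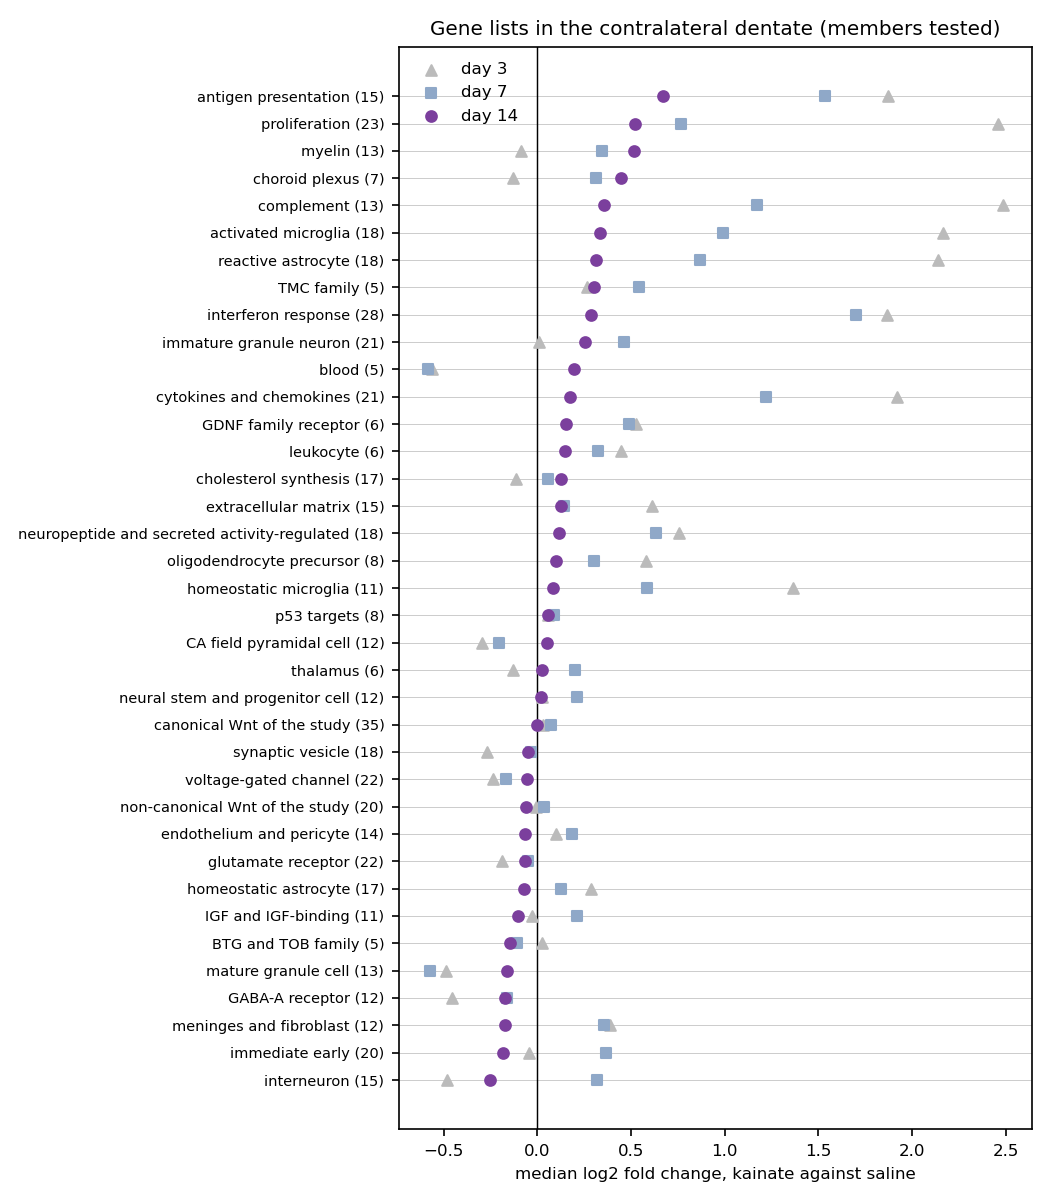
Median log2 fold change of kainate against saline (horizontal axis) of 37 gene lists in the contralateral dentate at day 3 (gray triangles), day 7 (blue squares) and day 14 (purple circles), ordered by day 14, with the number of members tested in parentheses. Antigen presentation (0.67), proliferation (0.52) and myelin (0.52) are highest at day 14 and interneuron genes lowest (-0.26); the interferon, antigen presentation, complement, reactive astrocyte and activated microglia lists are between 1.86 and 2.49 at day 3 and below 0.7 at day 14.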

How the data were processed

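RNA from 48 dorsal dentate gyri was sequenced as stranded, poly-A selected, paired-end libraries. The authors deposited raw counts per gene; per the labels reads were trimmed with fastp 0.20.1, aligned with HISAT2 2.2.1 to GRCm39 and counted with featureCounts (Subread 1.6.4), which per the methods counted by strand and kept the primary alignment of multi-mapping reads. Gene symbols came from Gencode M39, which held 98.9% of the identifiers. Genes were filtered with filterByExpr, scaled with TMM and tested with edgeR 4.0.16 (quasi-likelihood, robust) over all 48 libraries with 12 group means and Benjamini-Hochberg adjustment. DEGs changed over 1.5-fold with an adjusted p under 0.01. CPM used the TMM library sizes. With 4 mice per group the smallest exact permutation p is 0.0286. The 8 libraries of day 14 held 18557469 to 24661115 counts. DESeq2 1.42.0, limma 3.58.1, other normalizations, filters and sets of libraries, and leaving out each mouse were alternatives. The fits were tested on simulated data with no outlying mouse, where genes above 1 CPM were changed at day 14. There edgeR called 95 of 100 genes changed 4-fold and 63 of 100 changed 2-fold, so changes of that smaller size can be missed.

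Named genes were the DEGs at day 14, the 10 higher and 10 lower genes with the smallest p, the 8 upregulated and 6 downregulated genes with the smallest p at day 3, and the first and the smallest-p member of each of 39 gene lists. Others were named after their values were seen, and the comparison and lists were chosen with earlier results of these data known. Libraries with the same number are from the same mouse: at day 14 the correlation of their deviations from the group means was 0.039 to 0.349.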

Additional observations from a re-analysis of the deposited data

Results flagged for a closer look

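Library values were examined for a lone extreme in groups of 4 mice, where the gap to the nearest other mouse exceeded Dixon's critical share of the group's range. Chance alone gives this in about 1 in 20 groups, and it was met in 15 of 120. The 120 groups reused the same kainate and saline mice and were not independent, so the count cannot be read as an excess over chance. Mouse 27 of the kainate group accounted for 7 and mouse 39 of the saline group for 7.

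In mouse 27 the lone values were 2.68 CPM for Cass4 (others 1.10 to 1.31), 4.92 CPM for Cd1d1 (others 1.52 to 1.66), and summed levels of 342 CPM for antigen presentation (others 161 to 181), 268 CPM for interferon response (others 162 to 166), 1821 CPM for reactive astrocytes (others 687 to 789), 1610 CPM for extracellular matrix (others 1327 to 1341) and 5457 CPM for non-canonical Wnt genes (others 5587 to 5601). In mouse 39 they were 10.3 CPM for Fhip1a (others 15.4 to 16.5), 3.87 CPM for Lpar4 (others 5.39 to 5.56), 6.27 CPM for Kcng3 (others 2.94 to 3.30), and summed levels of 116 CPM for hilar mossy cells (others 17.3 to 19.6), 1732 CPM for immature granule neurons (others 1396 to 1426), 949 CPM for mature granule cells (others 1862 to 1958) and 4326 CPM for voltage-gated channels (others 4525 to 4552). In kainate mouse 14 the stem and progenitor sum was 326 CPM (others 348 to 352). What sets these mice apart was not tested.

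The kainate effect differed between day 14 and day 3 for 26 genes by the test of the difference. Of the genes named by rule, the differences were -1.97 for Aldh1l1, -1.56 for 2810459M11Rik, -1.06 for Lgi4, -0.79 for Myo10, -2.86 for Aspg, -1.31 for Ltbp3, -2.84 for Gfap and 1.12 for Gfra2 on the log2 scale. In the 16 edgeR fits that each left out 1 mouse, Aldh1l1 and 2810459M11Rik were called in all and Lgi4 in 14. Myo10 was called in 6 of them, Gfra2 in 4, Aspg in 3, Ltbp3 in 2 and Gfap in 1.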

How the results depend on the processing

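The count of 3 DEGs at day 14 became 6 at an adjusted p under 0.05, 9 with DESeq2, 13 with the PIZ libraries alone, 91 with limma-voom and quality weights, 0 with glmTreat and 0 without mice 27 and 39; leaving out 1 mouse gave 2 to 3. The 91 genes, 45 up and 46 down, held all 3 DEGs, and 20 of the 45 and 27 of the 46 had been DEGs in the same direction at day 3; quality weights were 0.760 for mouse 27 and 0.454 for mouse 39, against 1.48 to 2.45 for the other 6. Fitted with these 8 libraries alone in edgeR, the 3 DEGs were Tmc6, Calb1 and Fhip1a, and neither Btg3 (adjusted p = 0.0553) nor Igfbpl1 (0.155) was called.

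The count of genes whose PIZ kainate effect differs between day 14 and day 3 was 26 and became 190 at an adjusted p under 0.05, 161 with DESeq2, 1104 with limma-voom and quality weights, 858 with the groups compared, 855 with the PIZ libraries alone, 1 with glmTreat, 8 with no filter for low counts and 390 without mice 27 and 39. It was 9 in limma-voom with the mouse as replicate block, and leaving out 1 mouse gave 2 to 500. The count of 0 against day 7 became 1 with DESeq2, 3 with limma-voom, 1 with the groups compared, 1 with the PIZ libraries alone and 0 to 3 with 1 mouse left out, and that of 0 against the EZ became 2 with DESeq2. The cause of these changes was not tested. The fits with the block, made in limma-voom except for edgeR in the comparison with the EZ, changed no other count.

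With early genes called in the EZ at day 3, the day 14 median of the downregulated genes was -0.10 in place of -0.34. None of the 3 DEGs changed sign under any alternative run, while Prox1, Npy, Lgi4 and Myo10 did under some. The depth and 4 mice per group limit low genes: Tmc8 was under 1 CPM in each of the 8 PIZ libraries of day 14.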
